A study of Mus musculus with 6 samples.

Results

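The mitochondrial ribosomal protein genes were examined in lamina propria cells of the mouse colon, with and without atorvastatin. They were taken as every protein-coding gene in GENCODE mouse release 21 whose symbol is Mrpl or Mrps followed by a digit. This gave 78 genes of the 55401 gene IDs measured in each library. RNA of lamina propria cells, the loose connective tissue and immune cells beneath the gut epithelium, was sequenced in bulk from male Apc Min/+ mice aged 5 to 6 weeks. All of the mice, treated or not, carried the Min allele, which truncates the Wnt antagonist Apc and leads to intestinal adenomas. By gavage on alternate days, the mice behind 3 libraries had received vehicle (2% Tween 80). Those behind the remaining 3 had received 20 mg/kg of atorvastatin, which blocks the rate-limiting enzyme of cholesterol synthesis. Every value is an FPKM, a fragment count scaled by gene length and by library.

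Mitochondria carry their own ribosome, which makes the proteins encoded in mitochondrial DNA, all of them core parts of the respiratory chain and the ATP synthase. Its RNA comes from the mitochondrial genome, but each of its proteins is encoded in the nucleus, made in the cytosol and imported. Many of these proteins have a counterpart in the ribosome of bacteria, while others were added during the evolution of mitochondria. Most are present in a single copy per ribosome. The small subunit reads the messenger RNA, and the large subunit joins amino acids and releases the chain at the inner membrane. By current assignments 26 of the 78 genes encode proteins of the small subunit and 51 proteins of the large subunit. The latter include Mrps30 and Mrps18a despite their symbols. The remaining gene, Mrps36, encodes a protein now placed in the 2-oxoglutarate dehydrogenase complex.

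The summed FPKM of all genes lay between 355787 and 456064 per library, and sequencing depth is unknown. Vehicle library 3 had been seen to stand apart from the other 5 libraries, so the effect of leaving it out is given with the library values below. Whether each library is a separate animal is not stated by the labels. All p-values therefore rest on the spread between libraries, whether technical or not. The leukocyte gene Ptprc, which marks the immune cells of the tissue, had 17.7 to 18.6 FPKM in the vehicle libraries and 13.9 to 19.5 in the atorvastatin libraries. In bulk RNA, fewer cells of a type and less RNA per cell cannot be told apart.

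All 78 genes were expressed. Each passed the filter of at least 1 FPKM in at least 3 libraries, and 77 reached 1 FPKM in every library. The exception was Mrps35, a small subunit protein, which was under 1 FPKM in 2 atorvastatin libraries. Mean levels over the 6 libraries ran from 1.08 FPKM in Mrps35 to 25.2 in Mrpl54, with a median of 6.21 FPKM. The median over all genes tested was 5.51 FPKM, so these were genes of ordinary abundance in this tissue, far under the median of 160 FPKM of cytosolic ribosomal protein genes. After Mrpl54, the most abundant were Mrpl30 (23.9), Mrps21 (23.7), Mrpl24 (23.4), Mrpl50 (16.7), Mrpl12 (16.4), Mrpl20 (14.7), Mrps7 (14.6), Mrpl52 (14.4) and Mrps6 (13.5 FPKM). Neighbours among the top 4 did not differ beyond their spread: Mrpl54 had 28.4 ± 4.79 FPKM (SD, n = 3) with vehicle, Mrpl30 24.5 ± 5.35, Mrps21 25.3 ± 7.45 and Mrpl24 24.9 ± 0.577. The lowest besides Mrps35 were Mrps10 (1.40) and Mrpl15 (1.45 FPKM).

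Levels of these genes went with their length, although FPKM is already scaled by length. Across the 78 genes, Spearman's rho between mean FPKM and the joined length of all annotated exons was -0.73. It was -0.90 across the 26 small subunit genes and -0.67 across the 51 large subunit genes, against -0.17 across the 11500 protein-coding genes tested. With the length of the principal transcript, the highest-ranked in the annotation, rho was weaker, at -0.50, -0.63, -0.45 and -0.11 in the same order. Genes are not independent replicates, and all points share the same libraries and the same length scaling. Mrps35, Mrps10 and Mrpl15, at the low end, have 8631, 8079 and 8487 nt of joined exons, and Mrpl54 and Mrps21, at the high end, 825 and 739 nt. Exceptions were Mrpl30, abundant with 3226 nt, and Mrpl53, a large subunit protein with 2.23 FPKM and 790 nt. The SD of the levels on the log2 scale was 1.08 for FPKM and 0.77 for FPKM multiplied by the joined exon length. For FPKM rescaled from joined exon length to principal transcript length it was 1.15. Levels set side by side here are therefore levels per length as the authors scaled them, and the gene model they divided by is a point not given in the sources used here.

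**Figure D1:**
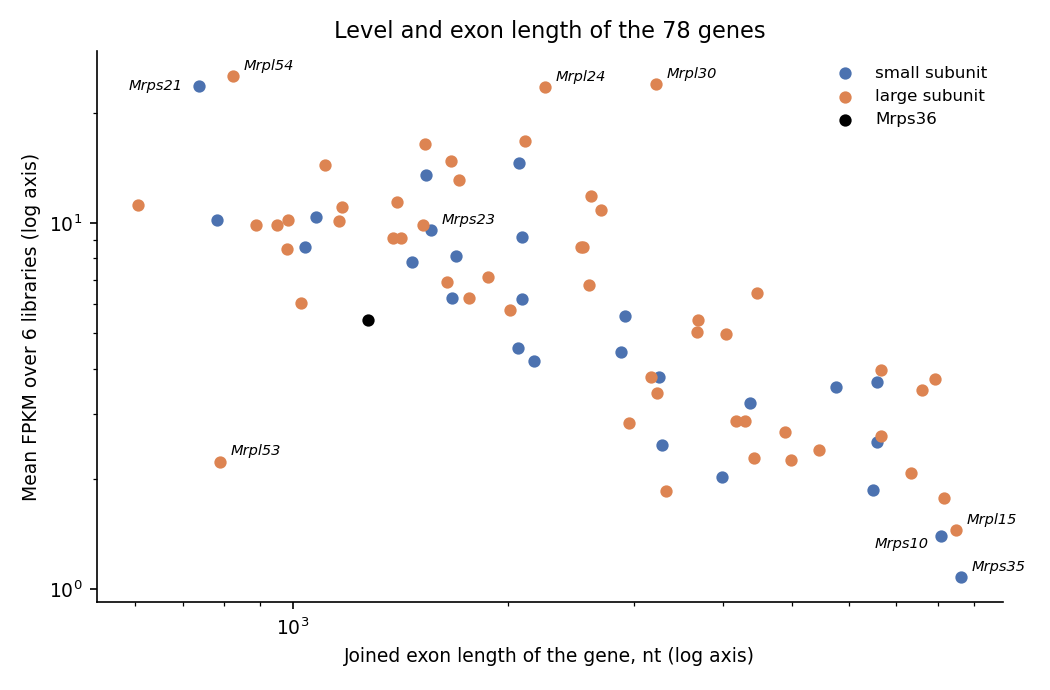
Mean FPKM over the 6 libraries (vertical, log axis) against the joined length of all annotated exons in nt (horizontal, log axis) for the 26 small subunit genes, the 51 large subunit genes and Mrps36, 1 point per gene. Levels fall as length rises, with a Spearman's rho of -0.73, and Mrpl53 and Mrpl30 lie off the band.

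With atorvastatin, 70 of the 78 genes (89.7%) had a negative difference, and 8 had a positive one. In all genes tested the share with a negative difference was 53.0%. The differences were small: the median was -0.17 on the log2(FPKM + 1) scale, against -0.02 over all 13590 genes tested. By limma on log2(FPKM + 1), with Benjamini-Hochberg adjustment over all genes, 0 of the 78 genes passed a false discovery rate of 0.05, as did 0.0% of all genes. Of the 78, 11 had an unadjusted p under 0.05, all of them with lower values under atorvastatin (14.1%), where the background for that direction was 4.04%, and 0 had higher values, where it was 3.13%. The number of the 78 with an unadjusted p under 0.05 was 7 without vehicle library 3. It was 5, 5 and 3 without atorvastatin libraries 1, 2 and 3. The shares of all genes under 0.05 in those fits are not given here, so these counts have no background. In 27 of the 78 (34.6%), every atorvastatin library lay below every vehicle library, against 8.85% of all genes, and in 0 every atorvastatin library lay above, against 5.53%. For 76 of the 78 genes the 95% confidence interval reached no further than 1 log2 unit from 0, and for 39 no further than 0.5. Both the size and the count depended on the scaling: with the trend on the length of the principal transcript removed, the median was -0.053 (0.016 over all genes) and 51 of 78 differences were negative, against 46.5% of all genes. Scaling each library to the same sum of FPKM left 58 of 78 negative, against 41.8% of all genes. It left 1 of the 78 at an unadjusted p under 0.05, again without the share of all genes beside it.

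Negative differences prevailed in both subunits, and among proteins of bacterial origin as well as those specific to mitochondria. Among small subunit genes 24 of 26 were negative with a median of -0.16, and among large subunit genes 45 of 51 with a median of -0.17. By origin, the median was -0.16 for the 16 small subunit genes with a counterpart in bacteria and -0.12 for the 10 specific to mitochondria. In the large subunit it was -0.15 for the 29 genes with a counterpart in bacteria and -0.17 for the 22 specific to mitochondria. These 4 medians lay between -0.17 and -0.12, and the difference between them was not tested. With the principal length trend removed they spread out, to -0.092 and -0.050 in the small subunit and to -0.0093 and -0.076 in the large subunit, in the same order.

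**Figure D2:**
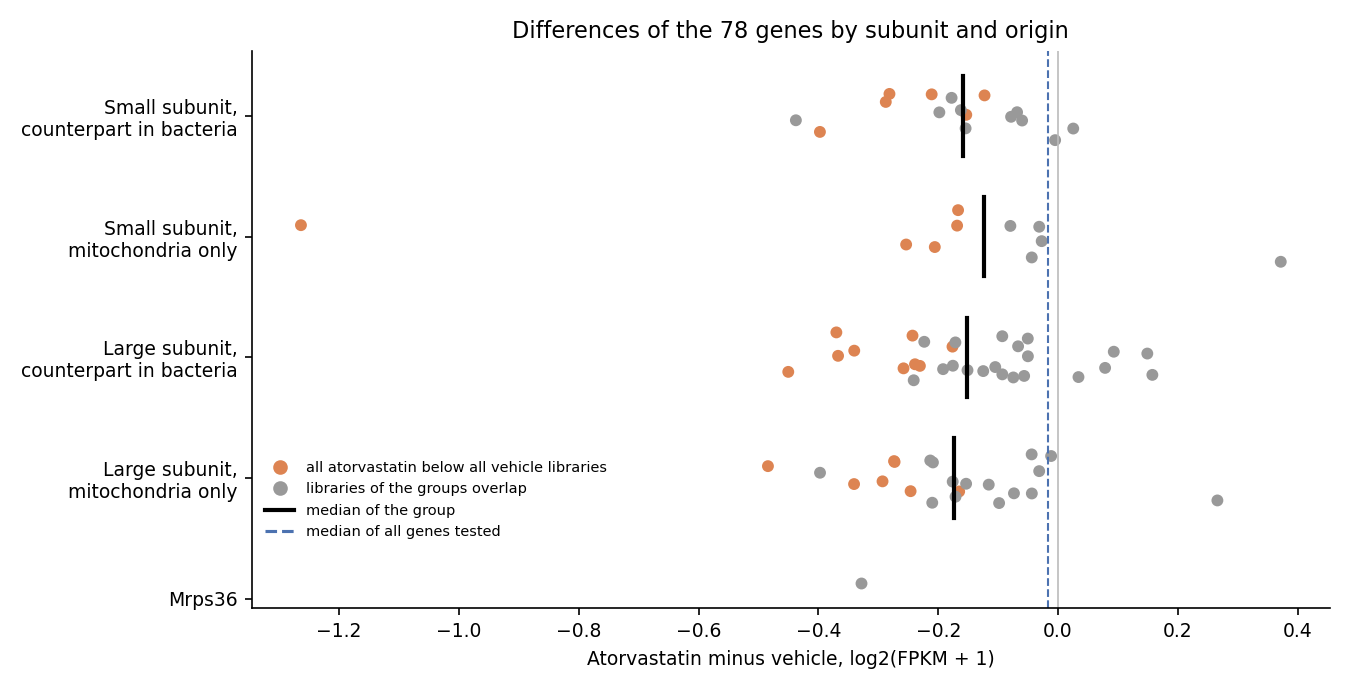
Difference between atorvastatin and vehicle on the log2(FPKM + 1) scale (horizontal) for each of the 78 genes, in rows by subunit and by origin, with the vertical scatter within a row arbitrary. Black bars are row medians, between -0.17 and -0.12, the dashed line is the median of all genes tested, and the coloured points are the 27 genes whose groups do not overlap.

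The small subunit held the gene with the largest difference of the 78. Mrps23 (ENSMUSG00000023723, chromosome 11, 88204388 to 88211507, plus strand, mm10), a protein found only in the mitochondrial ribosome, had 14.19, 10.68 and 16.73 FPKM in vehicle libraries 1 to 3 and 4.31, 7.12 and 4.27 in atorvastatin libraries 1 to 3. All atorvastatin libraries lay below all vehicle libraries, with a wide gap, and atorvastatin library 2 was the nearest to the vehicle range. Its mean under atorvastatin was 0.377 times that under vehicle. The log2 difference was -1.26 (SE 0.23, 95% confidence interval -1.80 to -0.72). It ranked 19 of 13590 genes by p (limma unadjusted p = 9.19e-04, adjusted p = 0.627), and so did not pass. Its neighbour on the chromosome, Cuedc1, did not overlap it in the annotation, and no other gene did.

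Other small subunit genes among the 10 with the smallest p differed less. Mrps15, whose bacterial relative binds the ribosomal RNA early in assembly, had 8.94, 8.85 and 9.23 FPKM with vehicle and 7.55, 6.75 and 7.42 with atorvastatin. Mrps14, also with a counterpart in bacteria, had 4.14, 3.98 and 4.71 with vehicle and 3.42, 3.33 and 3.20 with atorvastatin. The groups did not overlap in either gene, and the log2 differences were -0.28 (SE 0.10) and -0.29 (SE 0.10). Mrps12, the counterpart of the bacterial protein that guards the accuracy of decoding, averaged 8.54 ± 1.33 FPKM (SD, n = 3) under vehicle and 8.69 ± 1.15 under atorvastatin, a difference of 0.03 (SE 0.15). Mrps34, which is needed for the stability of the small ribosomal RNA, had 4.69 ± 1.33 and 4.43 ± 0.391 FPKM. Their differences were smaller than the spread between libraries. Mrps22 had 2.24, 2.23 and 2.14 FPKM with vehicle and 1.85, 1.84 and 1.86 with atorvastatin, and so was among the steadiest of all 78 genes within a group. Its groups did not overlap, yet its log2 difference of -0.17 (SE 0.10) had a limma adjusted p of 0.711.

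The abundant small subunit genes Mrps21, Mrps7 and Mrps6 had log2 differences of -0.16 (SE 0.21), -0.15 (SE 0.10) and -0.00 (SE 0.24). Mrps6 overlaps Slc5a3 and 2 predicted genes on its own strand, so reads at its locus may be shared with them. Mrps35 and Mrps10, the least abundant, had differences of -0.17 (SE 0.11) and -0.07 (SE 0.12). The largest positive difference of the 78 was in Mrps25, named after its values were seen, at 0.37 (SE 0.34), and it came from a single library. Mrps25 had 4.71 and 3.87 FPKM in vehicle libraries 1 and 2 but 1.19 in vehicle library 3, while the atorvastatin libraries had 4.30, 3.90 and 4.08. Apart from vehicle library 3, its 5 other libraries overlapped.

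Mrps18a, Mrps18b and Mrps18c encode related proteins of 1 family that bacteria also have. In the split by origin, Mrps18c is counted as the counterpart of the bacterial protein, and Mrps18a and Mrps18b among the genes specific to mitochondria. Their products occupy different places, that of Mrps18a in the large subunit and the other two in the small subunit. Mrps18c had 12.39, 8.21 and 16.21 FPKM with vehicle and 9.69, 7.90 and 7.98 with atorvastatin. Mrps18b had 12.48, 7.09 and 8.54 with vehicle and 7.71, 9.25 and 10.01 with atorvastatin. Mrps18a had 5.14, 6.16 and 6.16 with vehicle and 5.22, 4.48 and 5.47 with atorvastatin. The groups overlapped in all 3 genes, whose log2 differences were -0.44 (SE 0.23) for Mrps18c, -0.03 (SE 0.20) for Mrps18b and -0.17 (SE 0.12) for Mrps18a. Without vehicle library 3 the difference of Mrps18c was -0.23. Whether they differed from each other was not tested. Mrps36, the gene outside the ribosome, had 5.09, 4.38 and 9.37 FPKM with vehicle and 5.22, 4.26 and 4.24 with atorvastatin, so that vehicle library 3 alone stood above the rest. Its difference was -0.33 (SE 0.25) with that library and -0.043 without it.

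Among large subunit genes Mrpl44 came next by p. Its product has a fold like that of RNase III. Mrpl44 (ENSMUSG00000026248, chromosome 1, 79776018 to 79781445, plus strand, mm10) had 7.18, 8.07 and 9.40 FPKM with vehicle and 5.96, 5.10 and 5.64 with atorvastatin. Every atorvastatin library lay below every vehicle library. The mean was 0.677 times as high, and the log2 difference was -0.48 (SE 0.13, limma adjusted p = 0.692). Mrpl32, which the m-AAA protease must cut before it joins the ribosome, had 2.47, 2.62 and 2.88 FPKM with vehicle and 1.85, 1.72 and 1.93 with atorvastatin. Mrpl36, a small protein with a bacterial counterpart, had 10.44, 13.42 and 11.60 with vehicle and 9.98, 7.67 and 7.56 with atorvastatin. The groups did not overlap in either gene, although atorvastatin library 1 came close to vehicle library 1 in Mrpl36, and the log2 differences were -0.37 (SE 0.10) and -0.45 (SE 0.15).

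Further large subunit genes among the 10 with the smallest p were Mrpl21, Mrpl39, Mrpl33 and Mrpl1, with log2 differences of -0.37 (SE 0.13), -0.29 (SE 0.11), -0.26 (SE 0.10) and -0.34 (SE 0.14). Mrpl39, a relative of threonyl-tRNA synthetase, had 9.48, 8.61 and 10.57 FPKM with vehicle and 7.58, 7.74 and 7.45 with atorvastatin. Mrpl1, whose bacterial relative forms the mobile stalk by which spent transfer RNA leaves, had 2.83, 3.11 and 4.10 with vehicle and 2.25, 2.43 and 2.55 with atorvastatin. In all 4 genes the groups did not overlap, and the atorvastatin libraries lay closer together than the vehicle libraries. Each had a limma adjusted p of 0.692. Mrpl33 overlaps Rbks and a predicted gene in the annotation, with which its reads may be shared.

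**Figure D3:**
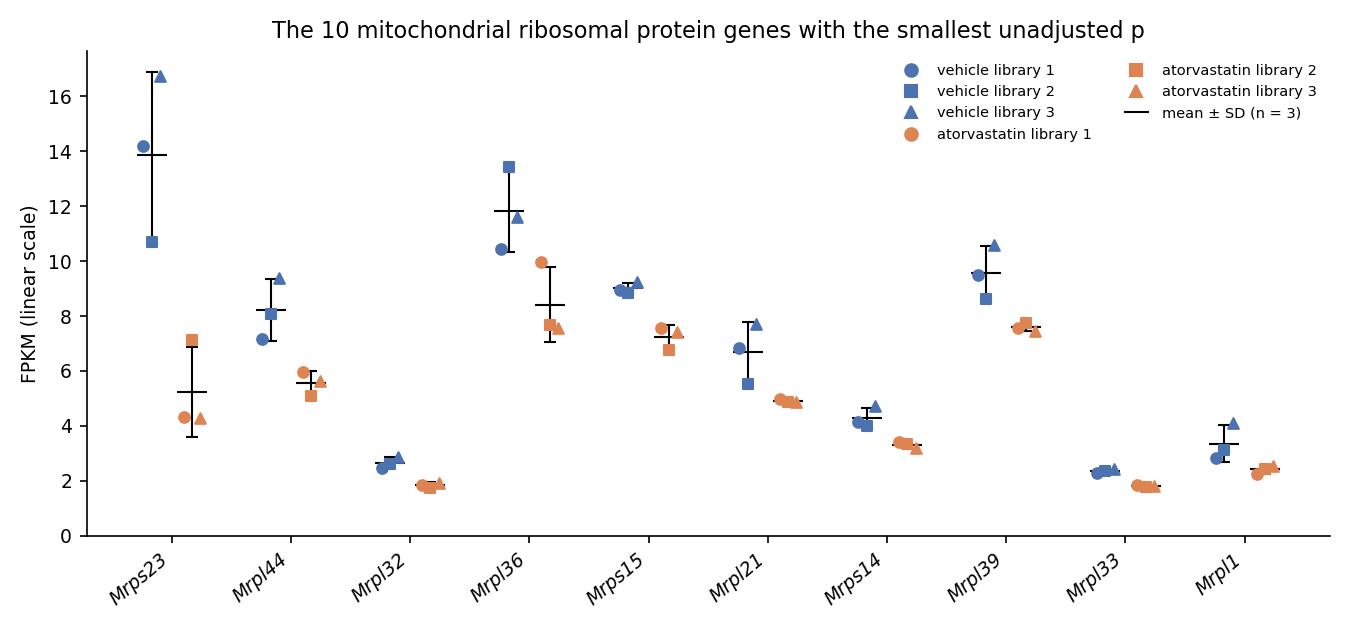
FPKM (vertical, linear scale from 0) in each library for the 10 genes with the smallest unadjusted p; marker shapes give the library number, and black bars the mean ± SD of 3 libraries. In each of the 10 every atorvastatin library lies below every vehicle library, by the widest margin in Mrps23. The choice by p for this same difference favours such a separation.

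The stalk of the large subunit, which calls in translation factors, is built on Mrpl11, Mrpl10 and several copies of Mrpl12. Mrpl10 had 14.02, 15.31 and 13.23 FPKM with vehicle and 11.49, 11.78 and 12.52 with atorvastatin. Mrpl11 had 3.95, 3.71 and 3.75 with vehicle and 3.52, 2.85 and 2.84 with atorvastatin. In both, the groups did not overlap, with log2 differences of -0.23 (SE 0.11) and -0.24 (SE 0.11). Mrpl12, which also binds the mitochondrial RNA polymerase, overlapped between groups, at 17.2 ± 2.76 FPKM (SD, n = 3) under vehicle and 15.6 ± 2.23 under atorvastatin. Around the peptide exit, Mrpl45, which holds the ribosome to the inner membrane, had 7.23 ± 0.707 and 6.28 ± 0.518 FPKM. Mrpl23 had 2.92 ± 0.736 and 2.45 ± 0.391 FPKM, while Mrpl24 had 24.24, 25.15 and 25.31 under vehicle and 23.48, 19.38 and 23.13 under atorvastatin, without overlap. All 4 genes listed at the exit, these 3 and Mrpl22, had negative differences, of which the largest in size was -0.18, in Mrpl24, and the smallest -0.057, in Mrpl22. Reads may be shared between Mrpl23 and its pseudogene Mrpl23-ps1, which had a mean of 1.43 FPKM. Mrpl48 and Mrps36 also have annotated pseudogenes.

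Mrpl54, the most abundant of the 78, had 23.56, 28.52 and 33.14 FPKM with vehicle and 22.11, 22.65 and 21.31 with atorvastatin. Its atorvastatin libraries lay just below the lowest vehicle library (log2 difference -0.34, SE 0.14, limma adjusted p = 0.692). Mrpl30, nearly as abundant, had 25.60, 18.73 and 29.26 FPKM with vehicle and 24.95, 18.04 and 26.98 with atorvastatin. Here the libraries of a group differed far more than the groups did (log2 difference -0.07, SE 0.21). Mrpl50, Mrpl20 and Mrpl52 had differences of -0.03 (SE 0.17), -0.07 (SE 0.11) and -0.21 (SE 0.19), and without vehicle library 3 that of Mrpl52 was -0.041. Mrpl15 had a difference of -0.24 (SE 0.13). Mrpl58, a release factor built into the large subunit that frees stalled chains, had 1.61, 2.38 and 2.77 FPKM with vehicle and 1.26, 1.64 and 1.44 with atorvastatin. Atorvastatin library 2 reached just above vehicle library 1, and the log2 difference was -0.40 (SE 0.16, limma adjusted p = 0.692). Mrps30, a large subunit protein despite its symbol, had 2.83 ± 0.271 and 2.41 ± 0.161 FPKM.

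The spread between libraries of a group was a little smaller for these genes than for most. The median coefficient of variation was 13.3% with vehicle and 9.49% with atorvastatin, against 17.005% and 12.3% over all genes tested. It ran from 0.322% in Mrpl9 to 56.5% in Mrps25 with vehicle, and from 0.541% in Mrps22 to 31.3% in Mrpl53 with atorvastatin. Vehicle library 3 was the highest of the 6 libraries for 46 of the 78 genes, while it was the highest for 27.3% of all genes tested. Atorvastatin library 2 was the lowest for 30 of the 78 and for 22.02% of all genes. The summed FPKM of the 78 genes was 581, 598 and 695 under vehicle and 573, 525 and 539 under atorvastatin. The atorvastatin sums lay below the vehicle sums, narrowly so between atorvastatin library 1 and vehicle library 1. As a share of all FPKM the groups overlapped, at 0.151% ± 0.0122 (SD, n = 3) under vehicle and 0.139% ± 0.0211 under atorvastatin. Without vehicle library 3 the median difference was -0.11, with 63 of 78 negative. Over all genes the median was then -0.03, with 56.0% negative. Large subunit genes then had a median of -0.094 with a bacterial counterpart and -0.115 when specific to mitochondria. Among the named genes, leaving that library out also moved Mrpl54 from -0.34 to -0.23, Mrpl1 from -0.34 to -0.22, Mrpl23 from -0.18 to -0.027, Mrpl12 from -0.12 to -0.019, Mrps10 from -0.07 to -0.014, Mrps30 from -0.17 to -0.11 and Mrps18b from -0.03 to -0.071. The sign turned positive in Mrpl30 (0.067), Mrpl50 (0.11), Mrps21 (0.055), Mrps34 (0.12) and Mrps6 (0.19), and negative in Mrps12 (-0.078).

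**Figure D4:**
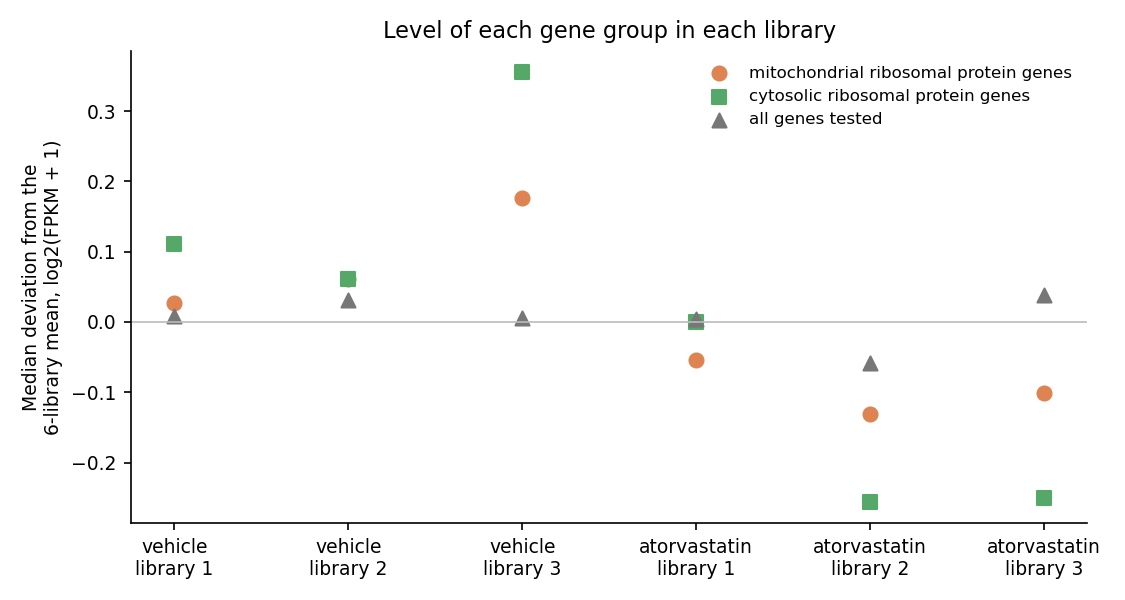
Median deviation of each library from the 6-library mean on the log2(FPKM + 1) scale, for the 78 mitochondrial ribosomal protein genes, the 79 cytosolic ones tested and all genes tested, 1 point per library and group of genes. For the mitochondrial ribosome the vehicle libraries lie at 0.03, 0.06 and 0.18, above all 3 atorvastatin libraries (-0.05, -0.13 and -0.10).

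Short transcripts in general had lower values under atorvastatin. Protein-coding genes in the lowest quartile of principal transcript length, up to 1880 nt, had a median difference of -0.11 and were negative in 73.4% of cases. In the highest quartile, over 4433 nt, the median was 0.08 and 33.1% were negative. Of the mitochondrial ribosomal protein genes, 52 lay in the lowest quartile, with a median of -0.17 and 46 negative. In the second quartile there were 8 of these genes with a median of -0.16, all negative, where all genes had -0.04 and 59.4% negative. In the third there were 13 with a median of -0.17, all negative, where all genes had 0.02 and 46.0% negative. In the highest there were 5 with a median of -0.10, 3 of them negative. The 3 longer quartiles hold few of these genes. Within the 78, the difference did not follow length: Spearman's rho with principal transcript length was -0.00, against 0.37 across the 11500 protein-coding genes tested. The effect of removing the length trend is given above.

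**Figure D5:**
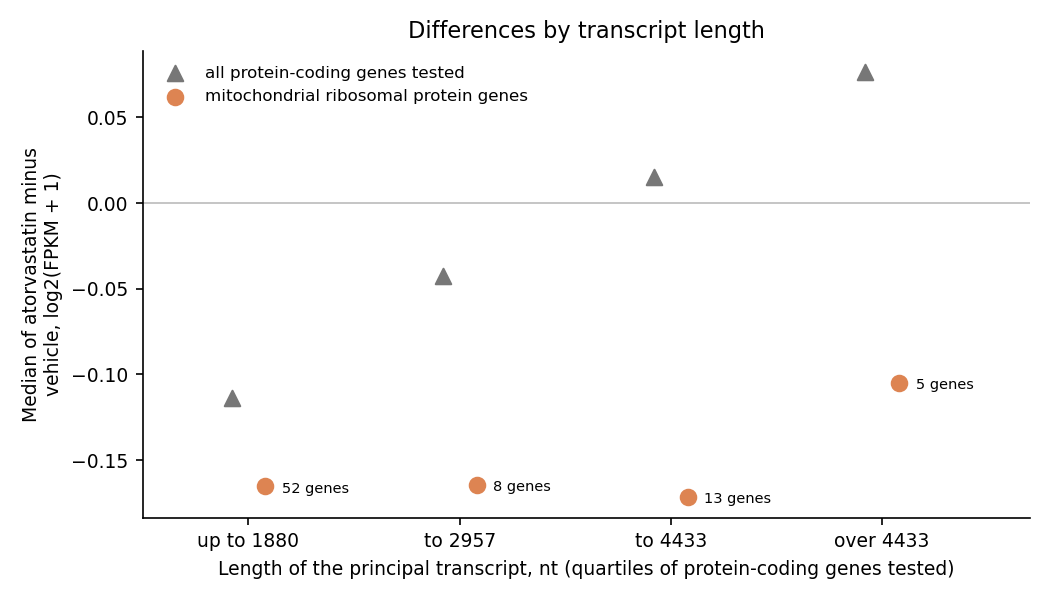
Median difference between atorvastatin and vehicle on the log2(FPKM + 1) scale (vertical) in quartiles of principal transcript length (horizontal, nt), for all protein-coding genes tested and for the mitochondrial ribosomal protein genes. Triangles climb from -0.11 to 0.08, while circles stay between -0.17 and -0.10, with 52, 8, 13 and 5 genes.

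Genes of the mitochondrial ribosome lie on 17 chromosomes, with the most, 11, on chromosome 11. They often share a start region with another gene. For 33 of the 78 (42.3%) another protein-coding gene starts on the opposite strand within 1000 bases, which holds for 15.9% of the 11500 protein-coding genes tested. The median distance was 128 bases, and the shortest, 26 bases, lay between Mrpl54 and Apba3. Several partners also serve mitochondria: Mrps12 starts 172 bases from Sars2, the mitochondrial seryl-tRNA synthetase, Mrpl36 29 bases from Ndufs6, a subunit of respiratory complex I, and Mrpl43 779 bases from Twnk, the helicase of mitochondrial DNA. Mrpl49 starts 59 bases from Fau, which encodes a cytosolic ribosomal protein, and Mrpl46 and Mrps11, both of the set, start 412 bases apart. Partners passed the filter for 26 of the 33 genes. Of these partners, 17 had a negative difference, against 53.0% of all genes tested, and their median was -0.03. The 26 mitochondrial ribosomal protein genes beside them had a median of -0.16.

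Some partners had differences like those of their neighbours and some did not. The strand setting is unknown, and 36 of the 78 genes overlap a gene on the opposite strand, Mrpl36 and Mrpl44 with their partners included. If strand was not kept, reads from the stretch that such a pair shares cannot be told apart. Ndufs6 had 16.87, 16.04 and 19.99 FPKM with vehicle and 15.73, 14.80 and 13.94 with atorvastatin, below the vehicle range as its partner Mrpl36 was. Mitd1, 66 bases from Mrpl30, had 14.13, 13.08 and 16.98 FPKM with vehicle and 13.31, 12.27 and 16.29 with atorvastatin. In both Mitd1 and Mrpl30, library 2 was the lowest and library 3 the highest of each group. Wdfy1, whose start lies 125 bases from that of Mrpl44, had 4.39, 4.72 and 3.50 FPKM with vehicle and 4.30, 3.87 and 5.34 with atorvastatin. Its groups overlapped, while those of Mrpl44 did not.

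Promoter windows, from 250 bases before to 50 after the start, were found for 69 of the 78 genes in a RefSeq table on GRCm38.p6. They were searched on both strands for the cores of 3 factors known to act on nuclear genes for mitochondria. The ETS core CCGGAAG, bound by GABPA among others, was in the windows of 26 of the 69 genes (37.7%), against 8.86% of all 32851 windows and 20.4% of the 9078 protein-coding genes tested that have a window. The YY1 core ATGGCGG was in 13 (18.8%), against 4.05% and 9.48%, and the NRF1 core GCATGCG in 8 (11.6%), against 3.58% and 7.18%. Any of the 3 was in 37 (53.6%), against 14.8% and 32.3%. A match is a run of letters and not a site of binding. Genes with an ETS core had a median difference of -0.16 and those without one -0.17, and for the NRF1 core the medians were also -0.16 and -0.17. For the YY1 core they were -0.093 with it and -0.17 without it, a difference that was not tested.

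Shown here are 3 windows, 5′ to 3′ on the strand of the gene, with the matched cores in capitals. Mrps23 is the gene with the largest difference, Mrps12 shares its start region with Sars2, and Mrpl22 is the only one of the 69 with all 3 cores. The Mrps23 window lies at chr11:88204138-88204437 (plus strand, GRCm38.p6), the Mrps12 window at chr7:28741772-28742071 (minus strand) and the Mrpl22 window at chr11:58171414-58171713 (plus strand).
Mrps23: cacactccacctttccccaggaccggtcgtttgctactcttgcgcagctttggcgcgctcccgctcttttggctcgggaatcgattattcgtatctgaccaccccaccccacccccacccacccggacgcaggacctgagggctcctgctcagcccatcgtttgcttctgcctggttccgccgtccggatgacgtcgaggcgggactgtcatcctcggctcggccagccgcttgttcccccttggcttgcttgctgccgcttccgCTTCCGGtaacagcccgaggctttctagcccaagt
Mrps12: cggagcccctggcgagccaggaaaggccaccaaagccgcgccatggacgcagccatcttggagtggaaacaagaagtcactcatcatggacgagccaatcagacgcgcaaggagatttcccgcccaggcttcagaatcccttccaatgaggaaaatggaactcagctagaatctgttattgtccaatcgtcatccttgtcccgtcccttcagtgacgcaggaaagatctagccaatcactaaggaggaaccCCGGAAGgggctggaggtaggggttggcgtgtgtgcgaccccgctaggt
Mrpl22: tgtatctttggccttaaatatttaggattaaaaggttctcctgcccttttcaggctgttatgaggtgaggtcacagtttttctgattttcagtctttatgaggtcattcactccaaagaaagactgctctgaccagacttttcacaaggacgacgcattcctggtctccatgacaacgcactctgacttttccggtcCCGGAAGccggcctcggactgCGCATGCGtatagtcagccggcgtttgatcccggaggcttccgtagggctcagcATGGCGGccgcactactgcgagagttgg
In Mrps23 the ETS core lies on the opposite strand, beginning 15 bases after the start, and in Mrps12 it begins 1 base after the start. In Mrpl22 the ETS core begins 53 bases before the start, the NRF1 core, which reads almost the same on both strands, 32 and 31 bases before it, and the YY1 core 22 bases after it.

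Other genes of mitochondrial translation had medians from -0.16 to 0.02, and 0 of them passed limma's test. Of the 5 mitochondrial ribosomal proteins with other symbols, 4 were negative (median -0.16). Among these Chchd1 averaged 15.4 ± 3.92 FPKM (SD, n = 3) under vehicle and 12.2 ± 1.22 under atorvastatin, and Aurkaip1, the exception, 10.3 ± 1.02 and 14.8 ± 4.27. Of 25 assembly factors of the mitochondrial ribosome, 18 were negative (median -0.12). Every atorvastatin library lay below every vehicle library in 3 of the 25 and above in 1. Over all genes tested those shares were 8.85% and 5.53%. Rbfa and Rpusd4, the most abundant of them, act on the RNA of the subunits and had differences of -0.05 (SE 0.14) and -0.08 (SE 0.12). Translation factors were negative in 12 of the 14 tested (median -0.09). Tufm, which brings transfer RNA to the ribosome, had 13.8 ± 1.27 and 12.5 ± 1.29 FPKM, and Oxa1l, which takes the new chain into the membrane, 10.1 ± 1.03 and 9.42 ± 0.537. Of the 15 mitochondrial aminoacyl-tRNA synthetases tested, which charge transfer RNA, 7 were negative and 8 positive (median 0.023, or -0.073 to 0.105 when single libraries were left out), and Iars2 and Hars2 had differences of -0.038 and 0.023.

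Genes for the copying and reading of mitochondrial DNA were negative in 8 of the 10 tested (median -0.08). Tfam, which packs mitochondrial DNA and starts its transcription, had 10.52, 10.11 and 9.21 FPKM with vehicle and 8.10, 7.54 and 8.46 with atorvastatin. Its groups did not overlap (log2 difference -0.28, SE 0.10, limma adjusted p = 0.692), and Tfb2m, its partner at the promoter, had a difference of -0.07. Polg, named after its values were seen, had 5.32, 5.43 and 4.53 FPKM with vehicle and 6.09, 6.21 and 5.84 with atorvastatin. Its log2 difference was 0.21 (SE 0.11). Of the 10, every atorvastatin library lay below every vehicle library in 1 and above in 1. Over all genes tested those shares were 8.85% and 5.53%. The 13 messenger RNAs of the mitochondrial genome, the templates this ribosome reads, were all negative with a median of -0.31. In 1 of the 13 every atorvastatin library lay below every vehicle library, against 8.85% of all genes tested. The 13 summed to 26031 FPKM in vehicle library 3 and to between 14632 and 17696 in the other 5 libraries. Without vehicle library 3 their median difference was -0.099. In both mitochondrial ribosomal RNAs vehicle library 3 was also the highest, and their median difference was -0.40 with it and -0.086 without it. Of these, mt-Rnr2 had 731, 569 and 1171 FPKM with vehicle and 603, 546 and 631 with atorvastatin. Among 9 tested regulators of nuclear genes for mitochondria, 5 were negative and 4 positive (median -0.01). Atf4 and Myc, the most abundant, had 198 ± 69.7 and 154 ± 42.8 FPKM, and 62.6 ± 14.6 and 54.7 ± 11.2. The largest difference of the 9 was positive, in Pprc1, named after its values were seen (0.56, SE 0.25, limma adjusted p = 0.696). Cytosolic ribosomal protein genes were taken by symbol, as protein-coding genes named Rpl or Rps and a digit, without Rps6k genes or names holding -ps. That takes in Rps19bp1 and leaves out Fau. Of the 82 so listed, 79 were tested and all were negative, with a median of -0.36. That median stayed negative in every alternative, at -0.19 with the principal length trend removed and -0.27 without vehicle library 3. In 43 genes every atorvastatin library lay below every vehicle library, against 8.85% of all genes tested.

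Markers of cell types differed between the groups too. All 8 B cell markers had negative differences, with a summed level of 347 to 463 FPKM under vehicle and 277 to 299.97 under atorvastatin, which did not overlap. Of 10 markers of colonic epithelium, cells that should be few in the lamina propria, 6 were tested and all were negative. Sums over all 10 were 31.5 to 46.7 and 20.1 to 46.7 FPKM. The most abundant of them, Epcam, had 12.4 ± 1.17 and 10.7 ± 2.69 FPKM (SD, n = 3). Of the 4 under the filter, Vil1 and Cdx2 had higher means under atorvastatin, and Krt20 and Slc26a3 lower ones. All 8 macrophage markers had positive differences (sums 128 to 277 and 215 to 232 FPKM), as were all 6 smooth muscle markers (574 to 1088 and 733 to 1027 FPKM). Without vehicle library 1, 4 of the 8 macrophage markers were negative, and without vehicle library 2, 3 of the 6 smooth muscle markers were. T cell markers were negative in 5 of 6 (77.01 to 88.5 and 60.6 to 75.3 FPKM), and these sums did not overlap either. Plasma cell markers were positive in 4 of 6 (1646 to 3680 and 2137 to 4532 FPKM), but in 1 of 6 without vehicle library 3, and fibroblast markers in 4 of 6 (723 to 924 and 694 to 923 FPKM), but in 2 of 6 without vehicle library 1. No marker was at 0 in all libraries. Their part in the differences of the mitochondrial ribosomal protein genes was not tested.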

How the data were processed

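RNA of colonic lamina propria cells was measured in 3 libraries with vehicle and 3 with atorvastatin. The submitters' processing notes name FastQC 0.11.2, Bowtie and mm10. The deposited values are FPKM with 2 decimals, per the file headers. Which quantifier, gene models and strand setting the authors used: not given in the sources used here. Symbols and lengths were read from GENCODE mouse release 21. Its coordinates match the files for 51957 of 55401 IDs (69 of the 78 genes studied), and 260 IDs had no symbol. The principal transcript is the one the annotation ranks highest, and the longest among equals.

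The 13590 genes that reached 1 FPKM in 3 or more libraries were tested on log2(FPKM + 1) with limma 3.58.1 (limma-trend, R 4.3.3, two-sided) with Benjamini-Hochberg adjustment and a threshold of 0.05. This scale understates differences of low genes. The fit was tested on simulated data. The genes and gene lists were chosen with earlier results of these data known, so lists are described by counts and medians and not tested. Named genes were the 10 with the smallest p, the 10 highest and 3 lowest by level, 15 set genes and the 2 most abundant of each other list. Alternatives were other pseudocounts, filters, scalings, a variance with no trend, length trends, the replicate block and leaving out libraries. The trend on principal transcript length and leaving out Mrps36 were added after seeing the data. Depth is unknown, so no counting interval is given.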

Additional observations from a re-analysis of the deposited data

How the results depend on the processing

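In all 16 alternatives run, 0 of the 78 genes passed limma's test (smallest adjusted p 0.3004, for Mrps23 with equal sums per library), and the median difference was negative. It lay between -0.20 and -0.11 when single libraries were left out, and 63 to 72 differences were negative. It moved to -0.089 when scaled to the same sum without immunoglobulin genes (0.060 over all genes) and to -0.053 with the principal length trend removed. With a mean of at least 5 FPKM required, 41 of the 46 genes tested were negative, against 56.3% of all genes. Over all genes, 0 to 2 passed when single libraries were left out, 1 without atorvastatin library 1 and 2 without atorvastatin library 3.

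The median of small subunit genes specific to mitochondria moved to -0.069 with equal sums, -0.052 without immunoglobulin genes, -0.068 with the exon length trend removed and -0.050 with the principal length trend removed; without single libraries it was -0.17 to -0.11. Small subunit genes with a bacterial counterpart moved to -0.071 without immunoglobulin genes (-0.21 to -0.11 without single libraries). With the principal length trend removed, large subunit genes with a bacterial counterpart had -0.0093 and those specific to mitochondria -0.076; without single libraries they had -0.19 to -0.09 and -0.25 to -0.11. The cause of these moves was not tested.

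Of 36 named genes, 25 kept their sign in every alternative. Signs turned with equal sums in Mrpl30 (0.0010), Mrpl50 (0.035), Mrps6 (0.061), Mrps18b (0.035) and Mrps34 (0.016), and with median-of-ratios scaling in Mrps6 (0.019). Without immunoglobulin genes they turned in Mrpl30 (0.024), Mrpl50 (0.058), Mrpl20 (0.013), Mrps6 (0.083), Mrps18b (0.058) and Mrps34 (0.034). With the exon length trend removed this held for Mrps21 (0.031), Mrpl50 (0.056), Mrpl20 (0.037), Mrps6 (0.12), Mrps18b (0.062) and Mrps34 (0.046). With the principal length trend removed it held for Mrpl30 (0.086), Mrps21 (0.084), Mrpl50 (0.023), Mrpl20 (0.11), Mrpl52 (0.056), Mrps6 (0.17), Mrps10 (0.078), Mrpl23 (0.024), Mrps18b (0.11) and Mrps34 (0.12). Leaving out single libraries gave -0.24 to 0.10 in Mrpl30, -0.16 to 0.11 in Mrpl50, -0.078 to 0.12 in Mrps12, -0.19 to 0.18 in Mrps18b, -0.33 to 0.055 in Mrps21, -0.23 to 0.12 in Mrps34 and -0.23 to 0.19 in Mrps6. None of these genes passed the test in any alternative.

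No pairing by the replicate numbers of the labels was seen. Deviations of same-numbered libraries correlated across genes at -0.11, 0.14 and -0.02, and those of differently numbered libraries at -0.16 to 0.19. With 3 libraries per group these values cannot exclude a pairing. With the replicate block, 0 of the 78 passed, the median difference stayed at -0.17, and 7 of the 78 had an unadjusted p under 0.05. The share of all genes under 0.05 in that fit is not given here. Mrps23 had -1.26 (SE 0.26) with the block.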
